A study of Mus musculus with 54 samples.

Results

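The comparison was between small-intestinal group 2 innate lymphoid cells (ILC2s) kept in culture for 48 h and the same kind of cells kept for 4 h, both with IL-2 and IL-7 and without IL-25. It took 4 libraries at 48 h and 4 at 4 h, 8 of the 54 samples of the series, chosen by their labelled treatment and time, and all 10799 genes listed for them. Of these genes, 10548 passed the filter on low values and were tested. The cells were WT and came from C57BL/6 mice of 8 to 12 weeks, male and female pooled. The study asked how the nuclear receptor gene Rxrg sets the reactivity of these cells to IL-25, and the cultures without IL-25 are its baseline over time. RNA was read with Smart-seq2, which covers whole transcripts of small cell numbers, and values are TPM, a share of transcripts corrected for length. Both groups had been in culture, so the contrast is between a later and an earlier time in a dish, and freshly isolated cells were not part of it. The labels do not say whether the 4 libraries of a group came from separate mice or cultures, and p-values therefore measure the spread between these libraries, which may be technical.

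ILC2s are tissue-resident lymphocytes without antigen receptors. They secrete IL-5, IL-13, IL-9 and amphiregulin when epithelial cytokines such as IL-25 and IL-33 reach them, and they live on the common gamma chain cytokines IL-2 and IL-7, which signal through JAK kinases and STAT5. Most of them rest outside the cell cycle in the gut. Entry into the cycle starts with G1 cyclins, which free E2F factors from the retinoblastoma family. E2F factors switch on genes of DNA replication, and a later wave under B-MYB and FOXM1 switches on genes of mitosis, whose promoters often hold CCAAT boxes and a cell cycle homology region. MYC drives ribosome production and biosynthesis in growing lymphocytes.

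The 48 h and 4 h groups were well separated. Pearson's r between libraries, across genes on log2(TPM + 1), was 0.984 to 0.987 within the 48 h group, 0.979 to 0.982 within the 4 h group and 0.877 to 0.893 between them. The listed genes summed to 873200 to 878712 TPM at 48 h and 882707 to 887420 at 4 h. TPM keeps no read total, so depth is unknown and no counting error could be given. Defining ILC2 genes were abundant in both groups: Gata3 averaged 723 against 611 TPM at 48 h against 4 h, and 16 ILC2 markers together summed to 3827 to 4260.3 TPM at 48 h and 3559 to 4022 TPM at 4 h. Of 12 T cell markers 4 were listed, with a sum of 89.7 to 135 TPM at 48 h and 35.5 to 42.6 TPM at 4 h, most of it from Cd3g, while Cd3d, Trac, Trbc1 and Trbc2 were not among the genes listed. None of 12 mast cell, basophil and eosinophil markers was listed. The 3 listed of 10 NK and ILC1 markers summed to 0.92 to 3.28 TPM at 48 h and 0.14 to 1.15 TPM at 4 h. The 5 listed of 8 ILC3 markers summed to 5.28 to 9.74 and 23.3 to 57.8 TPM, the 2 of 14 macrophage, dendritic cell and neutrophil markers to 5.86 to 8.96 and 10.4 to 12.1, the 3 of 14 epithelial markers to 103 to 122 and 179.8 to 197, and the 2 of 12 stromal and endothelial markers to 12.4 to 20.3 and 34.1 to 43.1, each at 48 h and at 4 h in that order. Cd79b was the 1 listed of 10 B and plasma cell markers, at 45.7 against 28.3 TPM. In bulk RNA, fewer cells of a type and less RNA per cell cannot be told apart. The part of other cell types in the results was not tested.

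Over all genes tested, 6793 (64.4%) were called, 2094 (19.9%) higher and 4699 (44.5%) lower at 48 h, by limma on log2(TPM + 1), with Benjamini-Hochberg adjustment over all genes tested and an adjusted p under 0.05. Of these, 2378 changed by at least 2-fold (22.5%), with 769 (7.29%) higher and 1609 (15.3%) lower. The 48 h and 4 h libraries did not overlap for 5745 genes (54.5%). The median gene lay 0.28 lower at 48 h on the log2 scale, so list medians below are to be read against -0.28. When each library was instead scaled by the median of its ratios to a common reference, the median was 0.01 and the split became 3277 higher and 3060 lower, and with quantile normalization the median was -0.08. The direction of several gene groups depends on that choice. One 48 h library, replicate 1, had the lowest value of the 4 for 59 of 60 mitosis genes, against 4419 of all 10548 genes (41.9%). Without it, 2071 genes were called higher and 4293 lower.

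Cell cycle genes of G1, S phase and mitosis rose. In the cyclin and CDK genes of G1, of 14 tested, 9 were called higher and 1 lower (median log2 difference 1.44). Ccne1, cyclin E1, which with CDK2 carries cells into S phase, had 42.8, 48.6, 53.2 and 42.5 TPM in the 48 h libraries, against 1.37, 1.25, 1.87 and 1.24 TPM in the 4 h libraries. All 48 h values lay above all 4 h values, 32.7-fold in the means (log2 difference 4.298, SE 0.15, limma adjusted p = 7.8e-18). Its paralog Ccne2, cyclin E2, had 28.2, 33.3, 32.2 and 28.96 TPM in the 48 h libraries, against 2.4, 2.55, 1.5 and 0.49 TPM in the 4 h libraries (log2 difference 3.61, adjusted p = 3.9e-14). Ccnd3, cyclin D3, the D-type cyclin of many lymphocytes, had 334, 320.2, 400.4 and 368 TPM in the 48 h libraries, against 101, 115, 105 and 101 TPM in the 4 h libraries, also without overlap (log2 difference 1.74, adjusted p = 2.8e-15). Ccnd2, cyclin D2, was abundant at both times, with 403, 288, 323 and 301 TPM at 48 h and 236, 237, 296 and 266 TPM at 4 h, and was not called (log2 difference 0.34, adjusted p = 0.17), while it was called higher after median-of-ratios scaling (log2 difference 0.67) and when only the 48 h and 4 h groups were fitted. The transcription factor genes E2f1 and E2f2, whose products switch on replication genes, averaged 5.93 against 0.5 TPM and 5.86 against 0.54 TPM at 48 h against 4 h (log2 differences 2.21 and 2.29). The 1 member that fell was Cdk6, a cyclin D kinase, named after its value was seen (54.7 against 137 TPM, log2 difference -1.32).

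In the DNA replication list, of 53 genes tested, 51 were called higher and 1 lower (median log2 difference 2.09), and 52 had no overlap between the groups, where 54.5% of all genes had none. Mcm5, a subunit of the replicative helicase, had 193, 209, 256 and 214 TPM in the 48 h libraries, against 26.5, 36.8, 25.96 and 22.5 TPM in the 4 h libraries. Pcna, the sliding clamp of DNA polymerases, had 286, 252, 267 and 247 TPM in the 48 h libraries, against 65.9, 63.6, 66.7 and 59.7 TPM in the 4 h libraries. Rrm2, the regulated subunit of ribonucleotide reductase, had 269, 329, 370.5 and 304 TPM in the 48 h libraries, against 3.7, 5.79, 3.97 and 2.69 TPM in the 4 h libraries. In each of the 3 the groups were far apart, with log2 differences of 2.93, 2.02 and 6.01 (limma adjusted p = 2.8e-17, 1.8e-16 and 2.9e-20). Cdc6, which loads the helicase at origins, had 42.4, 44.1, 53.8 and 39.3 TPM in the 48 h libraries, against 0, 1.08, 0.39 and 0.06 TPM in the 4 h libraries, with 3 of the 4 libraries at 4 h under 1 TPM (log2 difference 5.11, adjusted p = 5.4e-17). Clspn, claspin, a mediator of the replication checkpoint, averaged 28.7 against 0.422 TPM, Dscc1, a part of an alternative clamp loader, 25.5 against 0.365 TPM, and Cdc45, the helicase cofactor, 69.8 against 3.06 TPM, all at 48 h against 4 h. Tk1, thymidine kinase, averaged 119.7 ± 8.21 TPM at 48 h and 7.79 ± 1.61 TPM at 4 h (log2 difference 3.79). The exceptions, named after their values were seen, were Pold2, a subunit of DNA polymerase delta (90.4 against 87.1 TPM, not called), and Cdca7, a replication-linked chromatin factor (55.8 against 76.9 TPM, log2 difference -0.46), the 1 called lower, which was not called lower after median-of-ratios scaling.

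The promoters of replication and mitosis genes are shown because these genes moved together and because the motifs of their known regulators can be read in them. The 250 bases before the annotated start are given 5′ to 3′ on the gene's strand, from RefSeq (GRCm38.p6), with capitals marking E2F sites (TTTCCCGC, TTTGGCGC or TTTCGCGC), CCAAT boxes (CCAAT) and cell cycle homology regions (TTTGAA), each searched on both strands, so that a capital run can also be the reverse complement. Neighbouring matches can overlap. Cdc6 (chr11:98907901-98908150, plus strand) and Mcm5 (chr8:75109259-75109508, plus strand) stand for replication, and Cdk1 (chr10:69352913-69353162, minus strand), Ube2c (chr2:164769679-164769928, plus strand), Top2a (chr11:99024190-99024439, minus strand) and Ccnb2 (chr9:70421555-70421804, minus strand) for mitosis. They were chosen for the motifs they hold. Birc5 (chr11:117848987-117849236, plus strand), a mitosis gene with none of the motifs in this window, and Calca (chr7:114636358-114636607, minus strand), the gene with the largest fall, are shown beside them.
Cdc6: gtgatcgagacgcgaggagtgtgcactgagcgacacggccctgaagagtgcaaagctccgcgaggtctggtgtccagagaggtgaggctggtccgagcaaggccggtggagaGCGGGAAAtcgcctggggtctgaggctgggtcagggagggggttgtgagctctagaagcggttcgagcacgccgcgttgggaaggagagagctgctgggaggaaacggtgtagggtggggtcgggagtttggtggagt
Mcm5: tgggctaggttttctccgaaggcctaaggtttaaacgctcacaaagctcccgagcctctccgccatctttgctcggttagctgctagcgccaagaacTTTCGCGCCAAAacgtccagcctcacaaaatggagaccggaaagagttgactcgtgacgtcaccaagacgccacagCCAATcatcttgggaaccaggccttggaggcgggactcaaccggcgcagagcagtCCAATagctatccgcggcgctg
Cdk1: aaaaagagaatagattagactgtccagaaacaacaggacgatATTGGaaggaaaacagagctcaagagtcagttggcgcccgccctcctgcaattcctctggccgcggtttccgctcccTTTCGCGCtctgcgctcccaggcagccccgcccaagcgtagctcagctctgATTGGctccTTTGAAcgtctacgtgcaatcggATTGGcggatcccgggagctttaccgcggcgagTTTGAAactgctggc
Ube2c: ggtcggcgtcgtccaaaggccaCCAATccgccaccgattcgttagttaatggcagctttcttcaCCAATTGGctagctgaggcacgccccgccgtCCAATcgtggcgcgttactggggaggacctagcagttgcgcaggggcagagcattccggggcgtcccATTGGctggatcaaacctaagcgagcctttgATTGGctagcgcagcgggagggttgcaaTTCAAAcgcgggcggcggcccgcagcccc
Top2a: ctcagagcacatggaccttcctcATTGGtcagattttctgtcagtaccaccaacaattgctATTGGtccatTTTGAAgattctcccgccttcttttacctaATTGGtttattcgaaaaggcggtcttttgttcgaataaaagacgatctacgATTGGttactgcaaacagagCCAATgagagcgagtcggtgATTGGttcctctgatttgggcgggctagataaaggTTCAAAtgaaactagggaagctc
Ccnb2: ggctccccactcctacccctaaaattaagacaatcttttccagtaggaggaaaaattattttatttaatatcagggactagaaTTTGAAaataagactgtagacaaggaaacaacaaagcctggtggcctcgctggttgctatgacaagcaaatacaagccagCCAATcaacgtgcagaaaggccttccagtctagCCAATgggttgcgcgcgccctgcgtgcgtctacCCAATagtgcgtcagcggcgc
Birc5: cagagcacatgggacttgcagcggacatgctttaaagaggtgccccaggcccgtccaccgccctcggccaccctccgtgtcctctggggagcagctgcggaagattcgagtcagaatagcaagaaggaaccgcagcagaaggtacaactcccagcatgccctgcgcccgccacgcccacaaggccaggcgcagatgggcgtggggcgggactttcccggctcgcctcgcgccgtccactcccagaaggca
Calca: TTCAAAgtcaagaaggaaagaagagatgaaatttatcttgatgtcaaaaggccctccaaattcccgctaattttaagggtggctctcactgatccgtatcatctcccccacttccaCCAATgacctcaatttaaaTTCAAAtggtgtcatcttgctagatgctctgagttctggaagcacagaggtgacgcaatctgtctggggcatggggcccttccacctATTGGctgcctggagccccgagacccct

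Cdc6 held 1 E2F match, 138 to 131 bases before the start, and no CCAAT box. Mcm5 held 2 overlapping E2F matches between 153 and 142 bases before the start and 2 CCAAT boxes. Cdk1 held all 3 motifs, with a cell cycle homology region 15 to 10 bases before the start, a further one 71 to 66 bases before it and 3 CCAAT boxes. Ube2c held a homology region 29 to 24 bases before the start and 6 CCAAT boxes. Top2a held homology regions 23 to 18 and 179 to 174 bases before the start with 6 CCAAT boxes, and Ccnb2 a homology region 167 to 162 bases before the start with 3 CCAAT boxes. Of other cell cycle promoters looked at, Pcna and Rrm2 held 1 CCAAT box each and no E2F match, Ccnb1 held 2 CCAAT boxes and no homology region, and Birc5 and Ccne1 held none of the motifs. Calca, which fell, held 2 homology regions and 2 CCAAT boxes. A promoter was found for 8506 of the tested genes. An E2F match was present in 23.8% of 42 replication promoters, 5.88% of 51 mitosis promoters and 3.37% of all. The homology region was present in 33.3% of mitosis promoters, 9.52% of replication promoters and 10.8% of all. A CCAAT box was present in 70.6% of mitosis promoters, 59.5% of replication promoters and 37.4% of all. Over the genes that rose at least 2-fold (613 with a promoter), the shares were 7.83% for E2F, 17.3% for the homology region and 50.7% for CCAAT. Over the genes that fell at least 2-fold (1313 with a promoter), they were 2.89%, 8.83% and 35.6%, for the same motifs in that order. The shares depend on the window. With the 50 bases after the start added, the homology region was in 72.5% of mitosis promoters and 12.2% of all, E2F in 35.7% of replication promoters and 3.99% of all, and CCAAT in 72.5% of mitosis promoters and 39.7% of all. A match describes the letters and shows neither binding nor a cause.

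Of 60 mitosis genes tested, 59 were called higher and 0 lower (median log2 difference 4.23), and 58 had no overlap between the groups. Cdk1, the mitotic kinase, had 181, 313, 314 and 298 TPM in the 48 h libraries, against 4.22, 5.5, 1.99 and 1.34 TPM in the 4 h libraries. Its partner Ccnb1, cyclin B1, had 61.6, 123, 129 and 124 TPM in the 48 h libraries, against 0.41, 0.82, 1.41 and 0.63 TPM in the 4 h libraries. Ube2c, the ubiquitin-conjugating enzyme of the anaphase-promoting complex, had 191, 455, 468 and 432 TPM in the 48 h libraries, against 0.95, 3.07, 0.83 and 0.36 TPM in the 4 h libraries. For all 3, replicate 1 was the lowest of the 48 h libraries and still lay far above every 4 h library, and the log2 differences were 6.11, 5.89 and 7.44 (limma adjusted p = 4.2e-14, 6.8e-16 and 6.9e-18). Mki67, the Ki-67 proliferation marker, had 14.1, 21.4, 26.6 and 23.1 TPM in the 48 h libraries, against 0.88, 0.41, 0.85 and 0.03 TPM in the 4 h libraries (log2 difference 3.86, SE 0.18, limma adjusted p = 2.1e-15). Top2a, topoisomerase II alpha, had 82.5, 130.2, 147 and 118 TPM in the 48 h libraries, against 2.61, 2.29, 1.79 and 1.33 TPM in the 4 h libraries, with the same low library (log2 difference 5.31, adjusted p = 3.3e-19). Ccnb2, cyclin B2, lay between 106 and 172 TPM at 48 h and between 0 and 0.53 TPM at 4 h. Birc5, survivin of the chromosomal passenger complex, averaged 359.6 against 2.72 TPM, Cdca3, a trigger of mitotic entry, 141 against 0.963 TPM, Spc24, a kinetochore subunit, 156 against 1.37 TPM, and Ccna2, cyclin A2, 166 against 1.68 TPM, all at 48 h against 4 h. Pimreg, a mitotic regulator, and Pclaf, a PCNA-associated factor, averaged 81.96 against 0.362 TPM and 204 against 1.5 TPM. The list summed to 3351 TPM in replicate 1 of 48 h, to 5084, 5392 and 5785 TPM in the other 48 h libraries, and to 343 to 467 TPM at 4 h. Without replicate 1 the count stayed at 59 and the median was 4.42. Pttg1, securin, named after its value was seen, was the 1 member not called (80.8 against 75.7 TPM).

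**Figure D1:**
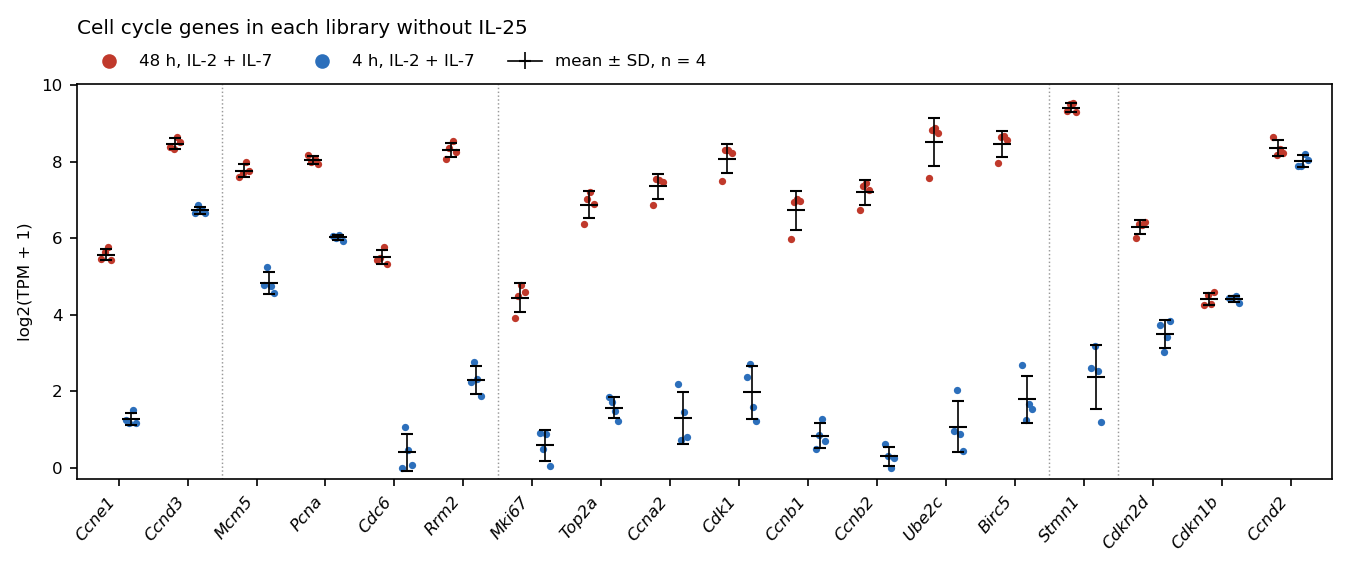
Each dot is a library and each bar the mean ± SD of 4 libraries on log2(TPM + 1), with 48 h left of 4 h for each gene. From Ccne1 to Cdkn2d all 48 h libraries lie above all 4 h libraries, replicate 1 is the lowest 48 h dot of the mitosis genes, and Cdkn1b and Ccnd2 overlap.

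Genes of chromatin assembly moved with replication: of 20 tested, 18 were called higher and 0 lower (median log2 difference 2.301). Stmn1, stathmin, a microtubule-destabilizing protein of dividing cells, had 643, 728, 741 and 627 TPM in the 48 h libraries, against 5.07, 8.13, 4.77 and 1.29 TPM in the 4 h libraries (log2 difference 7.04, SE 0.27, limma adjusted p = 4.8e-17). Hmgb2, a chromatin protein of cycling cells, averaged 755 ± 94.7 TPM at 48 h and 40.7 ± 5.94 TPM at 4 h, and Asf1b, a histone chaperone, 232 ± 26.3 TPM at 48 h and 6.04 ± 2.72 TPM at 4 h. The replication-dependent histone genes lie in clusters of near-identical copies, so single-gene values are uncertain. Hist1h2ap, a copy of histone H2A, had 3227, 3718, 2912 and 2811 TPM in the 48 h libraries, against 24.4, 34.3, 35.3 and 0 TPM in the 4 h libraries, the largest log2 difference of all genes tested (log2 difference 7.87, SE 0.66, limma adjusted p = 1.8e-10). H2ac11 and Hist1h2an were listed at 0 in every 4 h library and had 72.8, 116, 131 and 72.3 TPM and 65.6, 91.2, 57.5 and 39.1 TPM in the 48 h libraries. H2ac19, another H2A copy, ran the other way, at 0, 0, 9.74 and 0 TPM at 48 h and 55.2, 37.7, 38.4 and 46.8 TPM at 4 h, with all of its 48 h signal in replicate 3 (log2 difference -4.63, adjusted p = 9.2e-05). A set of 44 clustered histone genes, chosen after their values were seen, summed to 4164, 4950.6, 4002 and 3860.0 TPM in the 48 h libraries and to 196, 161, 171 and 159 TPM in the 4 h libraries, with 38 called higher and 1 lower and 11 listed at 0 in all 4 h libraries.

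The genes that restrain the cycle gave no single direction: of 17 tested, 7 were called higher and 5 lower (median log2 difference 0.46). Cdkn1b, p27, the inhibitor that holds resting lymphocytes in G0, was not called, with 18.1, 21.9, 18.5 and 22.97 TPM in the 48 h libraries and 20.6, 20.5, 21.4 and 18.8 TPM in the 4 h libraries (adjusted p = 0.99). Cdkn2d, p19, an inhibitor of CDK4 and CDK6 that is known to rise in cycling cells, had 63.5, 81.2, 80.2 and 84.8 TPM in the 48 h libraries, against 12.4, 7.2, 9.62 and 13.3 TPM in the 4 h libraries (log2 difference 2.78, adjusted p = 1.6e-10). Cdkn1a, p21, a p53 target and cyclin kinase inhibitor, had 293, 283, 359 and 301 TPM in the 48 h libraries, against 159, 157, 164 and 149 TPM in the 4 h libraries, higher at 48 h without overlap (log2 difference 0.96, adjusted p = 3.4e-08). Cdkn2c averaged 6.43 against 2.23 TPM and Rbl1, p107 of the retinoblastoma family, 12.4 against 4.89 TPM, both higher at 48 h. E2f4, the repressive E2F of resting cells, averaged 17.8 against 34.4 TPM and Tob2, an antiproliferative factor, 10.6 against 25.9 TPM, both lower at 48 h.

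Genes of ribosome biogenesis ran opposite to those of the cell cycle. All 27 genes of ribosome biogenesis and Myc targets were called lower (median log2 difference -1.64) with no overlap in any of them, and all were also called lower after median-of-ratios scaling and after quantile normalization. Myc had 50.2, 51.1, 57 and 41.5 TPM in the 48 h libraries, against 278, 278, 267 and 276 TPM in the 4 h libraries, a 5.49-fold lower mean at 48 h (log2 difference -2.44, SE 0.08, limma adjusted p = 6.6e-18). The 4 h values lay within a narrow band far above every 48 h value. Polr1b, the second largest subunit of RNA polymerase I, which transcribes ribosomal RNA, had 6.34, 6.96, 9 and 6.72 TPM in the 48 h libraries, against 68.4, 71.02, 75.3 and 64.5 TPM in the 4 h libraries (log2 difference -3.11, SE 0.19, limma adjusted p = 3e-13). Mybbp1a, a nucleolar protein of ribosome biogenesis, had 21.4, 33.05, 35.6 and 26.2 TPM in the 48 h libraries, against 207, 232, 244 and 211 TPM in the 4 h libraries (log2 difference -2.92, adjusted p = 7e-16). Neither gene had a value in 1 group near the other group. Ddx21, an RNA helicase of the nucleolus, averaged 20.9 against 117 TPM, Rrp12, a factor of pre-ribosome export, 5.65 against 33.4 TPM, and Srm, spermidine synthase, 38.2 against 191 TPM, all at 48 h against 4 h.

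Of 15 translation factors tested, 0 were called higher and 12 lower, beside 19.9% and 44.5% of all genes tested. Their median log2 difference of -0.34 was near that over all genes, -0.28. After median-of-ratios scaling 2 were called higher and 7 lower and the median was -0.01, so the list median depended on the scale. Eif5a, which eases ribosomes past proline stretches, averaged 1239 ± 58.1 TPM at 48 h and 3181 ± 58.2 TPM at 4 h, and Eif4a1, the cap-complex helicase, 295 ± 9.85 TPM at 48 h and 693 ± 36.4 TPM at 4 h. Eif4ebp1, the mTORC1-controlled brake on the cap-binding factor and a target of ATF4, averaged 33.02 against 94.6 TPM and fell as well (log2 difference -1.502). The mRNAs of the ribosome itself gave no fixed direction. Of 41 cytosolic ribosomal protein genes, 10 were called higher and 9 lower (median log2 difference -0.06), but 28 higher and 0 lower after median-of-ratios scaling, and 4 and 22 after quantile normalization, so the direction turned with the scale. Most genes of serine and amino acid supply fell: of 19 genes, 2 were called higher and 15 lower (median log2 difference -1.003), a split that stayed at 3 and 15 after median-of-ratios scaling. Phgdh, which opens serine synthesis, had 85.6, 100.4, 88.01 and 85.5 TPM in the 48 h libraries, against 401, 423, 455 and 402 TPM in the 4 h libraries (log2 difference -2.21, SE 0.07, limma adjusted p = 3.5e-18). Shmt2, the mitochondrial serine hydroxymethyltransferase, had 78.01, 75.8, 85.3 and 67.5 TPM in the 48 h libraries, against 280.4, 295, 311 and 280.2 TPM in the 4 h libraries (log2 difference -1.92, adjusted p = 2.9e-17). In both genes the 4 h libraries were well above the 48 h libraries. Slc7a5, the leucine transporter chain, averaged 1.21 against 10.3 TPM, Asns, asparagine synthetase, 6.19 against 21.9 TPM, and Mthfd1, a folate enzyme, 30.6 against 94.4 TPM.

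Sterol genes fell at 48 h: of 24 genes of cholesterol synthesis and uptake, 2 were called higher and 18 lower (median log2 difference -0.94), and 3 higher and 14 lower after median-of-ratios scaling. Hmgcs1, which makes HMG-CoA, had 21.2, 29.4, 31 and 20.2 TPM in the 48 h libraries, against 119, 107, 141 and 119.7 TPM in the 4 h libraries (log2 difference -2.23, SE 0.17, limma adjusted p = 3.3e-11). It is a target of SREBP2, and its groups did not overlap. Msmo1, a sterol oxidase, averaged 45.1 against 160.2 TPM, Insig1, the sterol sensor that retains SREBP, 28.7 against 92.4 TPM, and Dhcr7, the last enzyme of the pathway, 13.9 against 43.3 TPM. On the efflux side, of 9 LXR targets and related genes, 2 were called higher and 4 lower (median log2 difference -0.31). These shares are near those over all genes tested (19.9% and 44.5%). After median-of-ratios scaling 3 were called higher and 2 lower, so the efflux list had no fixed direction. Abcg1, a sterol exporter, averaged 19.2 against 9.65 TPM and was higher at 48 h. Dgat2, an enzyme that makes triglyceride, had 2.26, 1.86, 3.73 and 4.07 TPM in the 48 h libraries, against 43.1, 51.5, 55.5 and 58.7 TPM in the 4 h libraries, among the largest falls (log2 difference -3.77, SE 0.19, limma adjusted p = 9.6e-15), and Pcyt1a, the rate-limiting enzyme of phosphatidylcholine synthesis, had 12.8, 10.7, 10.7 and 9.96 TPM in the 48 h libraries, against 164, 148, 176 and 182 TPM in the 4 h libraries (log2 difference -3.81, SE 0.15, limma adjusted p = 7.2e-17). Neither overlapped. Dgat1 averaged 20.8 against 51.6 TPM and Cpt1a, the gate of mitochondrial fatty acid oxidation, 14.2 against 33.9 TPM, while Pparg, a nuclear receptor of lipid uptake, averaged 24.2 against 14.2 TPM and rose. Of 15 fatty acid genes, 3 were called higher and 7 lower (median log2 difference -0.25), and 6 higher and 3 lower after median-of-ratios scaling, so that list turned with the scale.

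Changes were small for oxidative phosphorylation genes. At least 2-fold changes were called for 2 of 20 glycolysis genes and 3 of 13 hypoxia genes, beside 22.5% of all genes tested. Of 28 oxidative phosphorylation genes, 13 were called higher and 7 lower (median log2 difference 0.16), none by 2-fold, and 22 higher and 0 lower after median-of-ratios scaling. Cox7a2, Cox6c and Cox5b, small subunits of cytochrome oxidase, averaged 1010 against 538 TPM, 1074 against 657 TPM and 941 against 611 TPM at 48 h against 4 h. Of 20 glycolysis genes, 4 were called higher and 8 lower (median log2 difference -0.15), but 10 higher and 5 lower after median-of-ratios scaling, so the direction turned with the scale, and 2 were called higher without 4 h replicate 4. Hk2, the inducible hexokinase, averaged 8.02 ± 1.48 TPM at 48 h and 19.4 ± 3.82 TPM at 4 h (log2 difference -1.17), Aldoa, aldolase A, 1393 against 2070.4 TPM, and Slc16a1, a lactate transporter, 3.61 against 14.5 TPM, all lower at 48 h, whereas the lactate exporter Slc16a3 averaged 38.4 against 22.1 TPM and was higher. Of 13 hypoxia genes tested, 1 was called higher and 5 lower (median log2 difference -0.02), and 5 higher and 5 lower after median-of-ratios scaling. Egln3, a prolyl hydroxylase induced by HIF, averaged 5.97 against 17.2 TPM.

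Genes of acute activation and stress were lower at 48 h. Of 21 immediate early genes, 2 were called higher and 17 lower (median log2 difference -0.94), and 3 higher and 12 lower after median-of-ratios scaling. Nr4a1, an orphan receptor quickly induced by receptor signalling in lymphocytes, had 1.02, 0.86, 1.8 and 1.99 TPM in the 48 h libraries, against 47.9, 30.1, 57.5 and 32.9 TPM in the 4 h libraries (log2 difference -4.14, SE 0.21, limma adjusted p = 9.8e-15). Gadd45b, a stress-induced activator of MAP kinase signalling, had 3.15, 5.84, 4.66 and 6.65 TPM in the 48 h libraries, against 64.3, 89.9, 81.5 and 65.1 TPM in the 4 h libraries (log2 difference -3.67, adjusted p = 7.6e-16). The groups lay far apart for both genes. Atf3 averaged 0.195 against 8.11 TPM, Fosl1 0.275 against 7.25 TPM and Egr2 0.19 against 5.28 TPM, transcription factor genes that were near 0 at 48 h. Jun, a subunit of AP-1, had 0.99, 1.13, 1.35 and 1.52 TPM in the 48 h libraries, against 5.36, 6.46, 8.88 and 7.29 TPM in the 4 h libraries (log2 difference -1.82, adjusted p = 6.2e-09). Fos, its partner, went the other way, with 10.9, 11.8, 13.8 and 8.23 TPM in the 48 h libraries, against 7.56, 7.78, 5.59 and 3.66 TPM in the 4 h libraries (log2 difference 0.79, adjusted p = 0.0039), the lowest 48 h library lying just above the highest 4 h library. Of 18 NF-kB response genes, 0 were called higher and 14 lower (median log2 difference -1.01), and 2 higher and 12 lower after median-of-ratios scaling. Tnfaip3, A20, a feedback inhibitor of NF-kB, had 2.99, 2.47, 4.57 and 2.47 TPM in the 48 h libraries, against 27.1, 41.5, 44.2 and 41.1 TPM in the 4 h libraries (log2 difference -3.26, SE 0.25, limma adjusted p = 2.6e-11). Cd83, an activation marker, had 0.22, 0.23, 0.52 and 0.22 TPM in the 48 h libraries, against 12.04, 17.8, 27.1 and 12.8 TPM in the 4 h libraries (log2 difference -3.76, adjusted p = 1.6e-13). Neither gene had overlapping groups. Zc3h12a, Regnase-1, an RNase that degrades cytokine mRNAs, averaged 1.42 against 12.04 TPM, Traf1 31.1 against 107 TPM, Nfkb2 38.5 against 94.2 TPM and Nfkbia, the inhibitor IkB alpha, 126 against 333 TPM.

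Chaperones fell in the cytosol, mitochondria and endoplasmic reticulum. Of 13 heat shock genes tested, 0 were called higher and 10 lower (median log2 difference -0.76), and 1 higher and 8 lower after median-of-ratios scaling. Hspa1a, inducible HSP70, which has a near-identical copy, Hspa1b, and is therefore uncertain, had 0.25, 0.24, 0.12 and 0 TPM in the 48 h libraries, against 18.8, 21.7, 14.8 and 7.6 TPM in the 4 h libraries (log2 difference -3.78, adjusted p = 4e-08). Hspb1, a small heat shock protein, was listed at 0 in all 48 h libraries and had 3.6, 8.19, 14 and 21.9 TPM in the 4 h libraries. Hsph1, HSP110, averaged 20.8 ± 3.53 TPM at 48 h and 99.6 ± 2.195 TPM at 4 h, and the mitochondrial pair Hspd1 and Hspe1 averaged 153 against 445 TPM and 307 against 591 TPM. Of 16 unfolded protein response genes, 0 were called higher and 13 lower (median log2 difference -0.97), and 1 higher and 10 lower after median-of-ratios scaling. Hspa5, BiP, the main chaperone of the endoplasmic reticulum, had 351, 369.9, 409.9 and 371 TPM in the 48 h libraries, against 980.1, 1002, 1149 and 1039.5 TPM in the 4 h libraries (log2 difference -1.47, SE 0.05, limma adjusted p = 1.8e-17). Atf4, the transcription factor of the integrated stress response, had 76.6, 67.1, 86.2 and 70.98 TPM in the 48 h libraries, against 188, 193, 199 and 205 TPM in the 4 h libraries (log2 difference -1.38, adjusted p = 1.1e-14). Their 48 h libraries all lay below their 4 h libraries. Hyou1 averaged 14.1 against 58.7 TPM and Calr, calreticulin, 190.3 against 439 TPM. Of 13 NRF2 targets, 2 were called higher and 7 lower (median log2 difference -0.40), and 3 higher and 6 lower after median-of-ratios scaling, with Hmox1, heme oxygenase, at 7.99 against 24.8 TPM.

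Survival genes went both ways. Of 13 BCL-2 family genes, 2 were called higher and 5 lower (median log2 difference -0.17), shares near those over all genes tested (19.9% and 44.5%). After median-of-ratios scaling 5 were called higher and 4 lower, so the list had no fixed direction. Bcl2l11, BIM, a killer protein that cytokine withdrawal induces in lymphocytes, had 2.1, 3.57, 4.47 and 3.64 TPM in the 48 h libraries, against 20.4, 21.6, 26.4 and 24.1 TPM in the 4 h libraries (log2 difference -2.46, SE 0.21, limma adjusted p = 1.8e-10). Bid, also pro-apoptotic, averaged 6.503 against 23.1 TPM, and the survival gene Bcl2 60.9 against 105 TPM, both lower at 48 h, while Bad and Bik, pro-apoptotic, averaged 45.9 against 23.2 TPM and 33.96 against 23.9 TPM and were higher. Bcl2a1d, a member of a family of near-identical copies and uncertain for that reason, averaged 1.19 against 11.5 TPM. Of 15 p53 targets, 2 were called higher and 6 lower (median log2 difference -0.06), but 4 higher and 5 lower after median-of-ratios scaling, where the median was 0.21, so the list had no fixed direction either. Cdkn1a rose, as above, whereas Mdm2 averaged 36.3 against 62.5 TPM, Aen 65.98 against 114 TPM and Fas, a death receptor, 7.48 against 17.2 TPM, all lower at 48 h.

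Most genes of cytokine receptor chains, JAKs and STATs were lower at 48 h. Of 16 cytokine receptor, JAK and STAT genes, 2 were called higher and 12 lower (median log2 difference -0.88), and 4 higher and 11 lower after median-of-ratios scaling. Il2ra, the high-affinity IL-2 receptor chain, had 69.5, 84.4, 91.02 and 81.01 TPM in the 48 h libraries, against 232, 249.6, 269 and 261 TPM in the 4 h libraries (log2 difference -1.63, SE 0.10, limma adjusted p = 8.1e-13). Il7r, the IL-7 receptor chain, had 46.1, 47.03, 56.3 and 47.9 TPM in the 48 h libraries, against 82.7, 83.9, 101 and 84.4 TPM in the 4 h libraries (log2 difference -0.82, SE 0.18, limma adjusted p = 0.00032). Neither gene's groups overlapped. Il2rg, the common gamma chain that both receptors share, and its kinase gene Jak3 were not called (log2 differences 0.14 and 0.24, adjusted p = 0.092 and 0.2). Stat5a, which relays both cytokines, had 8.75, 12.9, 15.5 and 8.67 TPM in the 48 h libraries, against 72, 70.7, 70.3 and 62.1 TPM in the 4 h libraries (log2 difference -2.52, SE 0.16, limma adjusted p = 5.4e-13), and its sister gene Stat5b averaged 9.69 against 26.6 TPM. Jak1, the kinase shared by these receptors, averaged 34.6 against 114 TPM, Stat3 63.9 against 149 TPM and Stat6, the relay of IL-4 and IL-13, 28.2 against 75.2 TPM. Of 14 genes that IL-2 and IL-7 are known to induce, 2 were called higher and 7 lower (median log2 difference -0.31). These shares are near those over all genes tested (19.9% and 44.5%). After median-of-ratios scaling 7 were called higher and 6 lower, so this list had no fixed direction. Pim2 and Pim3, survival kinases induced by STAT5, averaged 101 against 302 TPM and 16.8 against 54.3 TPM. Of 15 FOXO1 and KLF2 targets, 2 were called higher and 9 lower (median log2 difference -0.56), and 2 higher and 7 lower after median-of-ratios scaling. Tcf7, which encodes TCF-1, averaged 1.57 against 6.53 TPM and Irs2 4.37 against 12.2 TPM, while Txnip, a brake on glucose uptake, averaged 44.7 against 30.98 TPM and rose (log2 difference 0.51).

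Effector genes of ILC2s diverged from each other. Il9, which encodes IL-9, a growth factor of ILC2s and mast cells, had 2.6, 1.37, 2.81 and 3.64 TPM in the 48 h libraries, against 384, 346, 847 and 475 TPM in the 4 h libraries, with every 48 h library far below every 4 h library (log2 difference -7.103, SE 0.48, limma adjusted p = 3.3e-12). Il5, the eosinophil cytokine gene, had 199, 191, 169 and 191 TPM in the 48 h libraries, against 323, 308, 492 and 318 TPM in the 4 h libraries (log2 difference -0.91, SE 0.14, limma adjusted p = 5.9e-06). Il13, which drives mucus and smooth muscle responses, had 23.1, 24.3, 24.5 and 23.7 TPM in the 48 h libraries, against 21.9, 20, 24.6 and 27.3 TPM in the 4 h libraries, with overlapping groups and no call (log2 difference 0.04, adjusted p = 0.78), though it was called higher under quantile normalization (log2 difference 0.34) and median-of-ratios scaling. Areg, amphiregulin, an epithelial repair factor, had 36.6, 28.98, 25.3 and 30.01 TPM in the 48 h libraries, against 7.81, 8.44, 9.55 and 13.5 TPM in the 4 h libraries, higher at 48 h without overlap (log2 difference 1.54, SE 0.20, limma adjusted p = 4.6e-07). Arg1, arginase 1, which ILC2s carry as a metabolic marker, averaged 339 ± 10.7 TPM at 48 h and 135 ± 21.8 TPM at 4 h (log2 difference 1.33). Il6 averaged 8.89 against 33.5 TPM and Il2 6.9 against 1.47 TPM, lower and higher at 48 h in that order. Il22, a cytokine of ILC3s and the larger part of the ILC3 marker sum at 4 h, had 0.94, 0.5, 0.97 and 0.47 TPM in the 48 h libraries, against 25.9, 56.5, 20.8 and 34.8 TPM in the 4 h libraries (log2 difference -4.28, SE 0.57, limma adjusted p = 4.5e-07), and Ccl1, a chemokine gene that ILC2s express, had 0, 0.73, 1.81 and 2.58 TPM in the 48 h libraries, against 39.1, 43.8, 27.96 and 38.3 TPM in the 4 h libraries (log2 difference -4.21, adjusted p = 4.7e-13). Of 13 type 2 effector genes tested, 3 were called higher and 8 lower (median log2 difference -0.91), and 4 higher and 7 lower after median-of-ratios scaling.

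The largest fall on the log2 scale over all genes tested was that of a neuropeptide gene. Calca (chromosome 7, 114625981 to 114636910, GRCm38.p6), which encodes calcitonin gene-related peptide, a peptide that ILC2s make and that restrains them, had 16.8, 11.8, 15.6 and 10.5 TPM in the 48 h libraries, against 2752, 2891, 2688 and 2809.8 TPM in the 4 h libraries, a 204-fold lower mean at 48 h (log2 difference -7.59, SE 0.19, limma adjusted p = 2.1e-20). Ramp3, an accessory chain of calcitonin-family receptors, had 3.51, 2.63, 1.86 and 3.3 TPM in the 48 h libraries, against 86.9, 88.2, 89.9 and 96.2 TPM in the 4 h libraries (log2 difference -4.599, SE 0.20, limma adjusted p = 4.1e-16). Vipr2, a receptor for vasoactive intestinal peptide on intestinal ILC2s, had 2.81, 3.04, 3.68 and 1.97 TPM in the 48 h libraries, against 35.4, 35.05, 45.6 and 39.1 TPM in the 4 h libraries (log2 difference -3.37, adjusted p = 2.3e-13). All 3 had wide gaps between the groups. Ramp1, the chain that forms the CGRP receptor with CALCRL, went up instead, at 12.7, 9.08, 11.6 and 11.4 TPM at 48 h and 3.96, 5.33, 4 and 2.27 TPM at 4 h (log2 difference 1.35, adjusted p = 1.4e-05). Nmur1, the neuromedin U receptor that marks intestinal ILC2s, had 353, 346, 411 and 399 TPM in the 48 h libraries, against 189, 185, 171 and 166 TPM in the 4 h libraries, higher without overlap (log2 difference 1.08, adjusted p = 3.9e-09). Ptger2, a prostaglandin E2 receptor, averaged 6.15 against 20.3 TPM. Of the 14 genes tested in this list, 5 were called higher and 6 lower (median log2 difference 0.01), and 7 higher and 5 lower after median-of-ratios scaling. Without 48 h replicate 3, 3 of them were called higher.

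**Figure D2:**
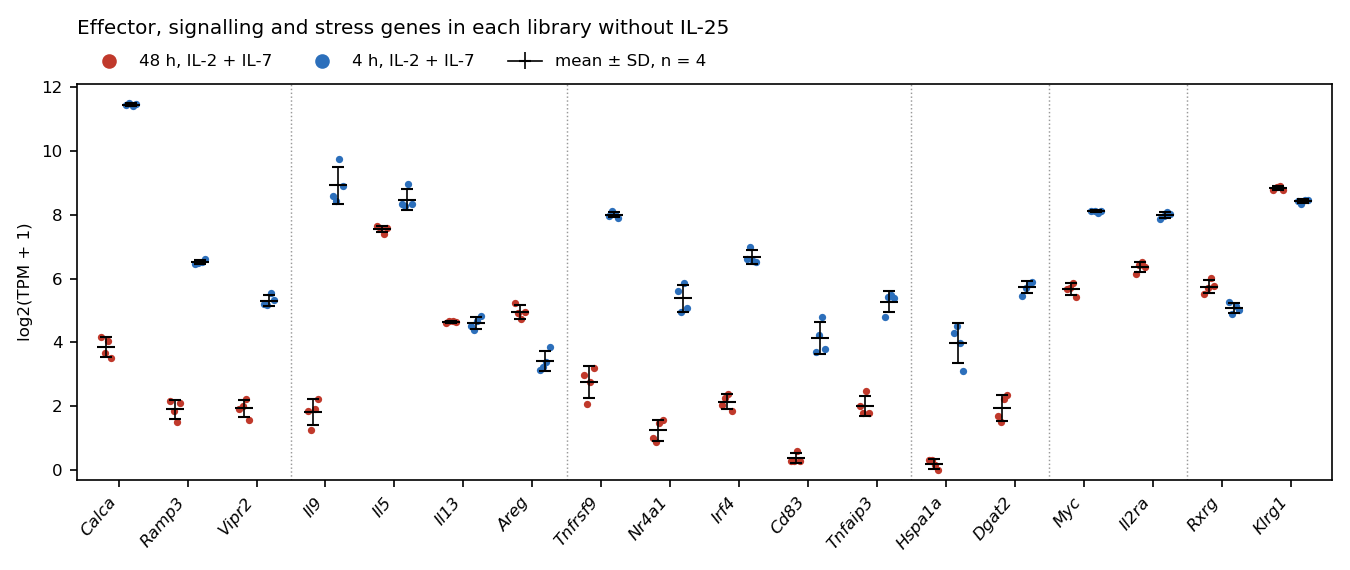
Each dot is a library and each bar the mean ± SD of 4 libraries on log2(TPM + 1), with 48 h left of 4 h for each gene. Calca, Il9 and Tnfrsf9 show the widest falls of the genes plotted, Il13 overlaps, and Areg, Rxrg and Klrg1 are higher at 48 h.

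Most genes in a list of alarmin and other cytokine receptors were lower at 48 h. Of 12 tested, 1 was called higher and 8 lower (median log2 difference -1.27), and 2 higher and 7 lower after median-of-ratios scaling. Il1rl1, Il1rap and Crlf2 were not called. Il17rb, the IL-25 receptor chain, had 107, 122, 145 and 121 TPM in the 48 h libraries, against 337, 351, 385 and 344 TPM in the 4 h libraries, lower in every 48 h library (log2 difference -1.51, SE 0.09, limma adjusted p = 2.8e-13). In the cultures with IL-25 its log2 difference was -3.04. Il1rl1, the IL-33 receptor ST2, overlapped between the groups and was not called (107 ± 16.5 TPM at 48 h and 119.5 ± 14.04 TPM at 4 h, log2 difference -0.16, adjusted p = 0.22). Tnfrsf25, DR3, the TL1A receptor, averaged 81.2 ± 11.9 TPM at 48 h and 229 ± 6.28 TPM at 4 h, Il18rap 12.4 against 35.6 TPM, and Il10ra 7.25 against 29.3 TPM. Among costimulatory and inhibitory receptors, Tnfrsf9, 4-1BB, had 6.94, 3.19, 5.85 and 8.23 TPM in the 48 h libraries, against 249, 276, 260.4 and 238 TPM in the 4 h libraries (log2 difference -5.24, SE 0.22, limma adjusted p = 2.1e-16). Tigit, an inhibitory receptor, had 1.19, 1.26, 0.74 and 0.59 TPM in the 48 h libraries, against 20.97, 15.04, 20.5 and 15.6 TPM in the 4 h libraries (log2 difference -3.29, adjusted p = 7.1e-11). For both, every 48 h library lay far below every 4 h library. Klrg1, an inhibitory receptor of mature ILC2s, had 435, 467, 480.4 and 435 TPM in the 48 h libraries, against 345, 319, 349 and 348 TPM in the 4 h libraries (log2 difference 0.42, adjusted p = 5.7e-08), and Cd200r1 averaged 228 against 105 TPM, both higher. Of 16 such genes, 5 were called higher and 6 lower (median log2 difference -0.12), and 7 higher and 5 lower after median-of-ratios scaling. Without 48 h replicate 1, or without 4 h replicate 4, 3 were called higher.

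Transcription factor genes ranged from small to large changes. Gata3, the master regulator, had 703, 643, 803 and 742 TPM in the 48 h libraries, against 608, 667, 606 and 564 TPM in the 4 h libraries, a small rise with overlap (log2 difference 0.24, adjusted p = 0.0076) that quantile normalization did not call. Rora, also required for ILC2 development, had 164, 154, 218 and 181 TPM in the 48 h libraries, against 220.2, 282, 252 and 223 TPM in the 4 h libraries (log2 difference -0.45, adjusted p = 0.0015), a fall that median-of-ratios scaling did not call. Id2, needed for all innate lymphoid cells, averaged 872 ± 15.7 TPM at 48 h and 525 ± 16.7 TPM at 4 h and rose (log2 difference 0.73). Its relative Id3 had 26.2, 29.1, 20.5 and 23.9 TPM in the 48 h libraries, against 0.33, 0.3, 0.29 and 0.25 TPM in the 4 h libraries, near 0 at 4 h in every library and well above it at 48 h (log2 difference 4.32, SE 0.18, limma adjusted p = 4e-16). Irf4, a factor induced by activation of lymphocytes, had 3.15, 3.84, 4.26 and 2.61 TPM in the 48 h libraries, against 97.2, 127, 92.5 and 91.3 TPM in the 4 h libraries (log2 difference -4.53, SE 0.16, limma adjusted p = 8.2e-18). Ets1 averaged 93.03 against 143 TPM, Runx3 20.3 against 33.6 TPM and Maf, c-MAF, 20.3 against 12.4 TPM, the last of them higher. Of 16 factors, 4 were called higher and 6 lower (median log2 difference -0.07), and 6 higher and 3 lower after median-of-ratios scaling.

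Rxrg, the gene the series is about, which encodes retinoid X receptor gamma (chromosome 1, 167598362 to 167639623), had 44.6, 50.8, 63.2 and 53.8 TPM in the 48 h libraries, against 37.6, 28.4, 34.1 and 31.3 TPM in the 4 h libraries. Every 48 h library lay above every 4 h library, and the mean was 1.62-fold higher at 48 h (log2 difference 0.67, SE 0.20, limma adjusted p = 0.0061). The two-sided exact permutation p was 0.0286, the smallest that 4 libraries against 4 can give, and leaving out any 1 library kept the fold between 1.51 and 1.70. The other retinoid genes went down or were not called: of 8 tested, 1 was called higher and 5 lower (median log2 difference -0.75), and 1 higher and 4 lower after median-of-ratios scaling, Rxrg being the 1 that rose. Rxrb had 8.27, 8.43, 9.39 and 8.74 TPM in the 48 h libraries, against 25.9, 24.2, 23.6 and 20.7 TPM in the 4 h libraries (log2 difference -1.34, adjusted p = 3.3e-09). Rara averaged 18.01 against 36.9 TPM and Rarg 2.98 against 8.31 TPM, receptors of retinoic acid. Aldh1a2, which makes retinoic acid, was listed at 0 in all 48 h libraries and had 5.61, 12.5, 10.2 and 4.93 TPM at 4 h. The aryl hydrocarbon receptor gene Ahr, a sensor of dietary and microbial ligands, averaged 10.7 ± 1.69 TPM at 48 h and 43.3 ± 7.25 TPM at 4 h (log2 difference -1.91). Of 8 genes in that pathway, 1 was called higher and 4 lower (median log2 difference -0.72), and 2 higher and 2 lower after median-of-ratios scaling.

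Single chemokine receptor genes moved in both directions. Ccr9, the gut-homing chemokine receptor, had 153, 147, 198 and 167 TPM in the 48 h libraries, against 35.7, 45.02, 41.9 and 47.5 TPM in the 4 h libraries (log2 difference 1.94, adjusted p = 1.5e-10). Ccr2 had 33.4, 45.2, 51.4 and 43.7 TPM in the 48 h libraries, against 6.49, 4.68, 6.27 and 4.98 TPM in the 4 h libraries (log2 difference 2.74, adjusted p = 3.3e-12). Ccr4, a receptor typical of type 2 lymphocytes, had 39.8, 36.1, 35.3 and 24.98 TPM in the 48 h libraries, against 198, 219, 203 and 189 TPM in the 4 h libraries (log2 difference -2.55, adjusted p = 8.6e-16). Ccr9 and Ccr2 were higher and Ccr4 lower in all 48 h libraries, and of 17 homing genes 3 were called higher and 7 lower (median log2 difference -0.14), shares near those over all genes tested, and 7 higher and 4 lower after median-of-ratios scaling. TGF-beta signalling genes fell: of 10 tested, 0 were called higher and 8 lower (median log2 difference -1.22), and 0 higher and 7 lower after median-of-ratios scaling. Tgfbr2 had 10.2, 11.5, 17.1 and 15.6 TPM in the 48 h libraries, against 27.3, 53.5, 56.4 and 66.7 TPM in the 4 h libraries (log2 difference -1.79, adjusted p = 1.1e-06), and Tgif1 and Skil, repressors of SMAD signalling, averaged 6.87 against 30.6 TPM and 13.7 against 45.8 TPM. Clock genes were also lower: of 18, 3 were called higher and 13 lower (median log2 difference -0.70), and 4 higher and 9 lower after median-of-ratios scaling. Nr1d2, REV-ERB beta, averaged 5.47 ± 1.12 TPM at 48 h and 29.6 ± 2.06 TPM at 4 h, Cry1 14.01 against 39.3 TPM and Nr1d1 7.92 against 20.2 TPM, all repressors of the clock, while its output gene Dbp was not called (10.99 against 8.04 TPM, adjusted p = 0.075) except after either rescaling or without 4 h replicate 4, where it was called higher. The clock time of harvest is not given for either group, so culture time and time of day cannot be told apart. Of 12 glucocorticoid-induced or related genes, 0 were called higher and 5 lower (median log2 difference -0.34), and 1 higher and 2 lower after median-of-ratios scaling, with Tsc22d3, GILZ, at 16.1 against 30.7 TPM (log2 difference -0.90).

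Interferon and MHC class I genes leaned upward, and MHC class II genes did not. Of 20 interferon genes tested, 9 were called higher and 3 lower (median log2 difference 0.36), and 12 higher and 1 lower after median-of-ratios scaling. Isg20, an antiviral exonuclease, had 84.4, 78.2, 66.9 and 90.8 TPM in the 48 h libraries, against 20.6, 21.6, 26.1 and 32.8 TPM in the 4 h libraries (log2 difference 1.64, adjusted p = 5.9e-09), and Zbp1, a nucleic acid sensor, averaged 106 ± 20.3 TPM at 48 h and 38.4 ± 3.82 TPM at 4 h. Oasl2, a family member of the antiviral oligoadenylate synthetases, averaged 3.31 against 12.9 TPM and was lower. Of 13 MHC class I genes, 6 were called higher and 1 lower (median log2 difference 0.07), with 11 higher and 0 lower after median-of-ratios scaling and 6 and 3 after quantile normalization. Psmb9, an immunoproteasome subunit, had 185, 215, 198 and 225 TPM in the 48 h libraries, against 56.5, 52.3, 57.5 and 53.03 TPM in the 4 h libraries (log2 difference 1.89, adjusted p = 3.9e-14), and B2m, the class I light chain, averaged 8756 against 6562 TPM. Psmb9 was the 1 member past 2-fold. Cd74, the MHC class II invariant chain, averaged 19.5 ± 5.56 TPM at 48 h and 123 ± 8.33 TPM at 4 h and fell (log2 difference -2.65), and of 6 class II genes 1 was called higher and 3 lower (median log2 difference -0.89), and 2 higher and 2 lower after median-of-ratios scaling.

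Genes of the cytoskeleton and of calcium- and membrane-binding proteins rose as well. Of 23 genes, 20 were called higher and 0 lower (median log2 difference 0.70), and all 23 were called higher after median-of-ratios scaling. Lgals1, galectin-1, a glycan-binding protein of activated lymphocytes, had 1156, 1272, 930.1 and 1217 TPM in the 48 h libraries, against 17.4, 10.3, 11.9 and 13.7 TPM in the 4 h libraries, an 85.8-fold higher mean (log2 difference 6.33, SE 0.12, limma adjusted p = 1.2e-22). S100a4 had 665, 583, 552 and 600.0 TPM in the 48 h libraries, against 12.3, 11.7, 19.3 and 10.4 TPM in the 4 h libraries (log2 difference 5.41, SE 0.21, limma adjusted p = 5.1e-17). S100a6 had 777, 695, 621 and 749.7 TPM in the 48 h libraries, against 10.5, 26.5, 16.3 and 11.9 TPM in the 4 h libraries (log2 difference 5.44, SE 0.34, limma adjusted p = 5.3e-13). For all 3, the lowest 48 h library was many times the highest 4 h library. Anxa2, annexin A2, averaged 244 ± 20.5 TPM at 48 h and 81.1 ± 8.97 TPM at 4 h, Tpm4, a tropomyosin, 261 ± 18.7 TPM at 48 h and 72.4 ± 4.29 TPM at 4 h, and Anxa1 21.2 against 8.72 TPM. Granule genes were mixed: of 14, 4 were called higher and 7 lower (median log2 difference -0.17), and 6 higher and 4 lower after median-of-ratios scaling. Gzmb, granzyme B, had 18.1, 106, 52.2 and 31.1 TPM in the 48 h libraries, against 3.47, 6.06, 11.5 and 2.86 TPM in the 4 h libraries (log2 difference 2.79, adjusted p = 1.7e-06), a rise without overlap but with a wide spread among the 48 h libraries. Gzma had 23.8, 5.7, 16.9 and 22.7 TPM in the 48 h libraries, against 134, 129.6, 101 and 135 TPM in the 4 h libraries (log2 difference -2.94, adjusted p = 1.7e-08), and Serpinb1a, a protease inhibitor, averaged 142 ± 22.8 TPM at 48 h and 18.6 ± 3.07 TPM at 4 h and rose (log2 difference 2.87). Ctsd, cathepsin D of the lysosome, averaged 546 against 253 TPM and Sqstm1, p62, the autophagy adaptor, 263 against 666 TPM, higher and lower in that order.

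Further genes among the 15 largest falls had no list of their own. Trf, transferrin, had 1.16, 2.21, 3.12 and 1.51 TPM in the 48 h libraries, against 108, 111, 99.4 and 104 TPM in the 4 h libraries (log2 difference -5.19, adjusted p = 1.6e-17). Pdzk1ip1, a small membrane protein, was listed at 0 in 3 of 4 libraries at 48 h and had 42.2, 53.1, 52.7 and 35.7 TPM at 4 h. Cystm1, a cysteine-rich membrane protein, had 4.89, 3.33, 4.06 and 4.33 TPM in the 48 h libraries, against 84.8, 83.6, 62.7 and 81.9 TPM in the 4 h libraries (log2 difference -3.94, adjusted p = 4.1e-15). Their 48 h and 4 h libraries were widely separated. Alpha globin, a marker of red cell precursors, rose: Hba-a1 had 496, 454, 499 and 469 TPM in the 48 h libraries, against 72.1, 70.5, 60.5 and 72.7 TPM in the 4 h libraries (log2 difference 2.78, adjusted p = 1e-10), and its near-identical copy Hba-a2 had 16.7, 25.7, 53.98 and 57.2 TPM in the 48 h libraries, against 10.4, 0, 0 and 5.28 TPM in the 4 h libraries, so the level of each is uncertain. The other 8 of 10 erythroid markers, among them beta globin and Alas2, were not among the genes listed, and the part of other cells in this rise was not tested.

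**Figure D3:**
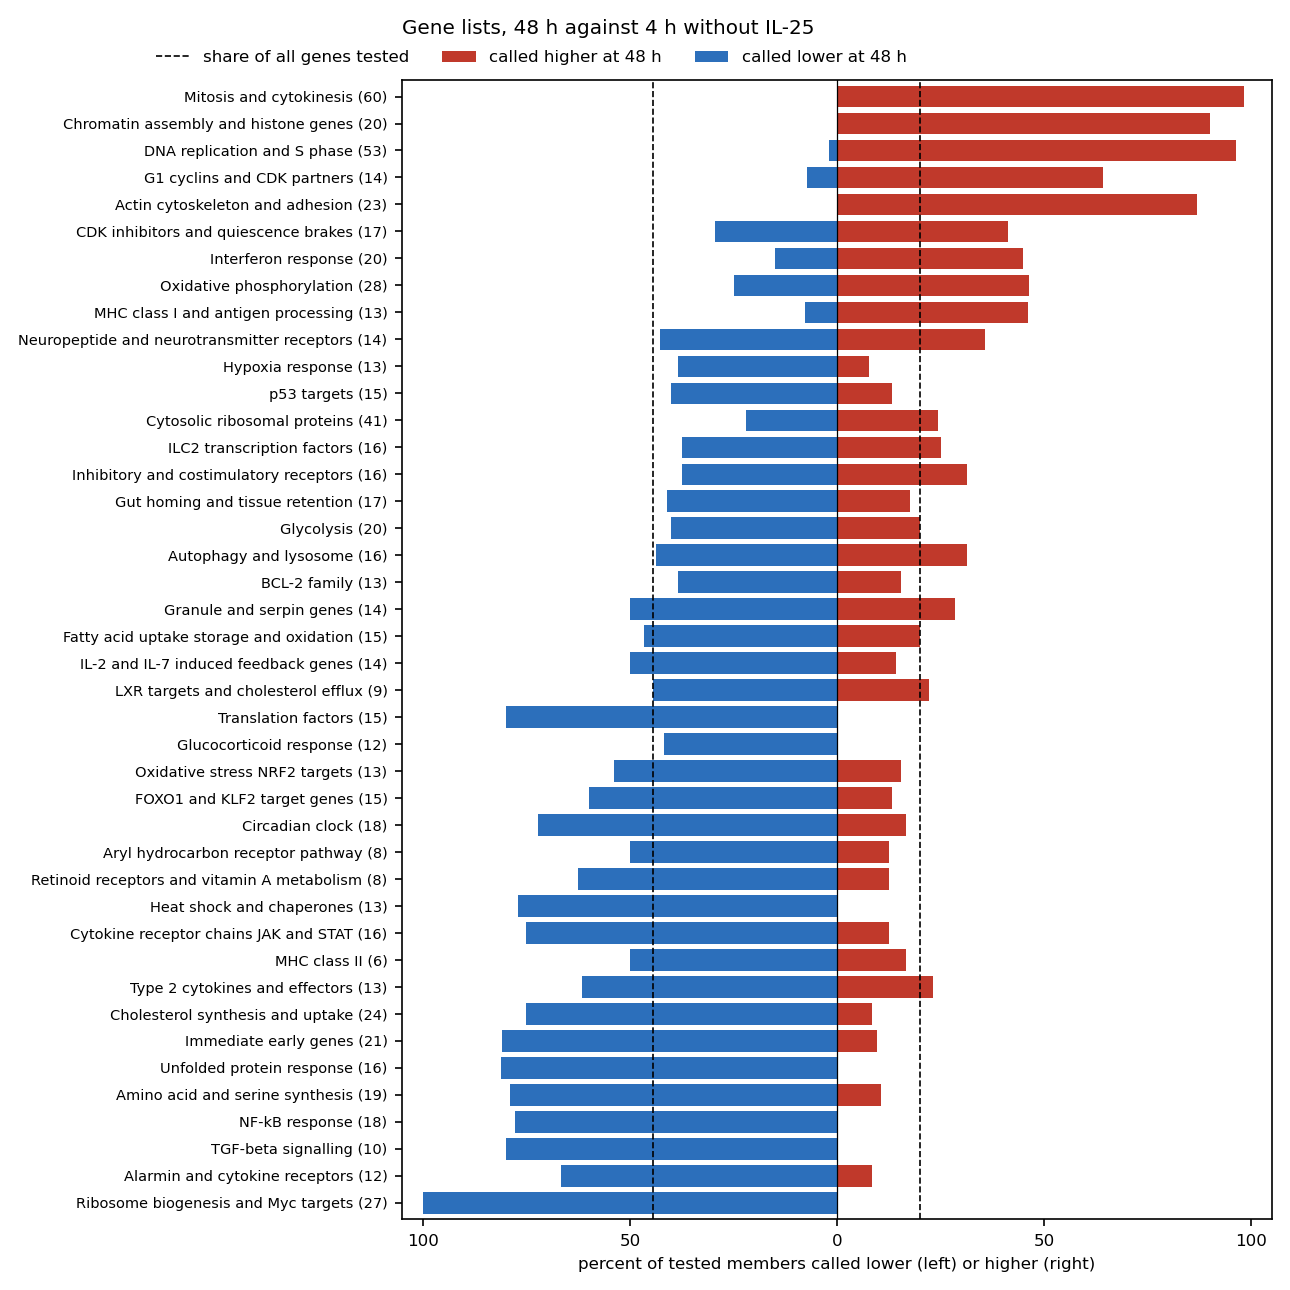
Bars give the percent of tested members of each gene list called higher (right) or lower (left) at 48 h without IL-25, with the number tested in brackets and the lists ordered by median log2 difference. Dashed lines mark the shares over all genes tested, 19.9% higher and 44.5% lower. Mitosis, chromatin, replication and actin lists lie far right of the line, and every ribosome biogenesis gene is on the lower side.

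The same step from 4 h to 48 h was measured in other libraries with IL-25 added. With IL-25, 7614 genes (72.2%) were called, 2915 (27.6%) higher and 4699 (44.5%) lower, and 3474 (32.9%) changed by at least 2-fold, 1340 (12.7%) higher and 2134 (20.2%) lower. Of the genes that rose at least 2-fold without IL-25, 602 of 769 (78.3%) also did with it, which is 44.9% of the list with IL-25. Of those that fell at least 2-fold, 1171 of 1609 (72.8%) also did with IL-25, which is 54.9% of the list with IL-25. The difference between the changes, tested as an interaction, was called for 2938 genes (27.9%), 1126 (10.7%) with a higher change without IL-25 and 1812 (17.2%) with a lower one. The cell cycle moved in both: of 60 mitosis genes the interaction called 5 higher and 10 lower without IL-25, with list medians of 4.23 without and 4.23 with IL-25. Of 53 replication genes it called 3 and 15 (medians 2.09 and 2.47). Mcm5 averaged 218 against 27.9 TPM without IL-25 and 226 against 28.2 TPM with IL-25 (interaction -0.03, adjusted p = 0.91). Ribosome biogenesis genes fell in both, with 0 of 27 called higher and 6 lower by the interaction, and Calca averaged 13.7 against 2785 TPM without IL-25 and 10.2 against 2288 TPM with IL-25 (interaction 0.11, adjusted p = 0.81).

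Other groups differed. NF-kB genes fell less without IL-25, with 17 of 18 called higher by the interaction and 1 lower (medians -1.01 without and -2.44 with IL-25), and clock genes likewise, with 13 of 18 and 1. MHC class I and interferon genes had 10 of 13 and 10 of 20 called higher and 0 lower, with medians of 0.07 and 0.36 without IL-25 and -0.63 and -0.69 with it. Glycolysis went the other way, with 16 of 20 called lower without IL-25 and 1 higher (medians -0.15 and 0.45), and so did oxidative phosphorylation, with 17 of 28 and 2, and actin genes, with 14 of 23 and 1. Single genes turned round: 27 genes, chosen after their values were seen, were called with at least 2-fold changes of opposite sign. Gzma averaged 17.3 against 125 TPM without IL-25 and 1647 against 120.2 TPM with IL-25 (interaction -6.71, adjusted p = 1.8e-11). Tigit averaged 0.945 against 18.01 TPM without IL-25 and 145 against 47.4 TPM with IL-25 (interaction -4.89, adjusted p = 1.7e-10). Both genes were lower at 48 h than at 4 h without IL-25 and higher at 48 h with it. Rxrg rose without IL-25 and fell with it, at 53.1 against 32.9 TPM without IL-25 and 3.65 against 8.62 TPM with IL-25 (interaction 1.71, adjusted p = 5.8e-05). Rora fell far less without IL-25, at 179 against 244 TPM without IL-25 and 36.5 against 372 TPM with IL-25 (interaction 2.87, adjusted p = 7.1e-13). Tnfrsf9 fell more without it, at 6.05 against 256 TPM without IL-25 and 131 against 279 TPM with IL-25 (interaction -4.15, adjusted p = 9.8e-11).

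**Figure D4:**
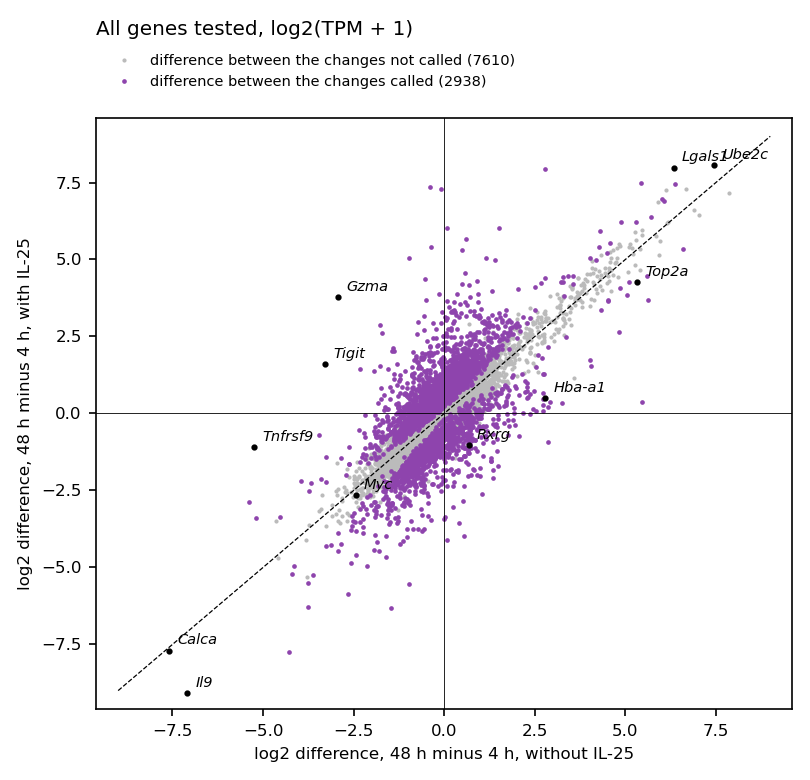
Each point is 1 of 10548 genes, with its log2 difference of 48 h minus 4 h without IL-25 on the x axis and with IL-25 on the y axis, and the dashed line marks equal changes. Purple points are the 2938 genes whose changes differ by the interaction. Ube2c, Myc and Calca lie near the line, while Gzma, Tigit and Tnfrsf9 lie far from it.

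Between 48 h and 72 h without IL-25 few genes were called: 30 (0.284%) were called higher and 10 (0.0948%) lower, 0.379% of genes tested in all, with 1223 genes at an unadjusted p under 0.05, 10 to 43 and 1 to 11 when any 1 library was left out, and 1 and 0 in a fit of the 2 groups alone. That comparison shares the 48 h libraries, so the levels are given side by side. At 4, 48 and 72 h Ccnb1 averaged 0.818, 109 and 115 TPM, Mcm5 27.9, 218 and 168 TPM, Myc 274, 49.95 and 46.7 TPM, Polr1b 69.8, 7.25 and 6.63 TPM, Calca 2785, 13.7 and 27.2 TPM, Lgals1 13.3, 1144 and 1467 TPM and Rxrg 32.9, 53.1 and 50.4 TPM. For these genes the 72 h means lay close to the 48 h means beside the distance of either from 4 h. Some list sums still differed without overlap. The replication list summed to 5101 to 5970 TPM at 48 h and 4268 to 4779 TPM at 72 h, and MHC class I genes to 18043 to 18461 and 21422 to 23314 TPM. The mitosis sums (3351 to 5785 and 4827 to 5225 TPM) and ribosome biogenesis sums (2713 to 3002 and 2452 to 2742 TPM) overlapped. Of the replication, mitosis and ribosome biogenesis lists, 1, 0 and 0 members were called lower at 72 h than at 48 h and 0 higher.

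**Figure D5:**
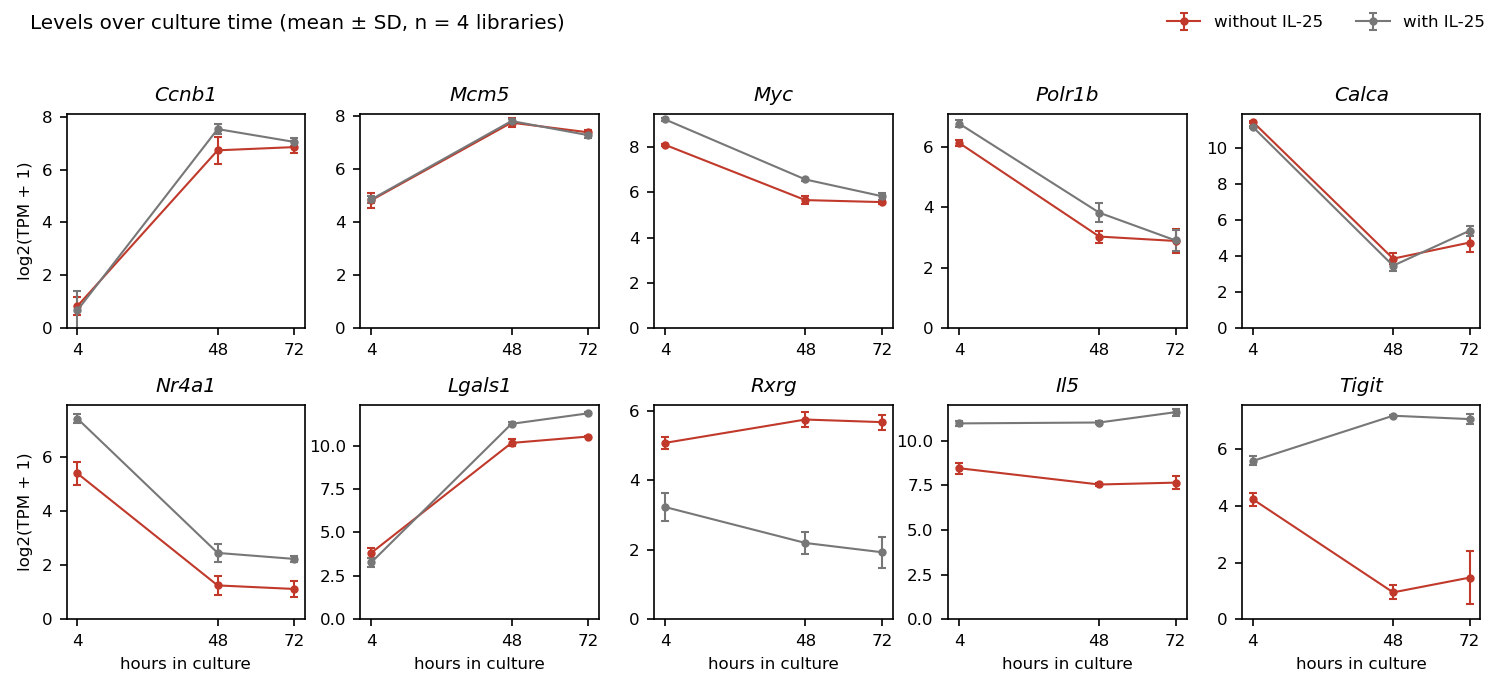
Points are means and bars SDs of 4 libraries on log2(TPM + 1) at 4, 48 and 72 h, without IL-25 (red) and with IL-25 (grey). Without IL-25 the means at 72 h lie nearer to 48 h than to 4 h, and from 4 to 48 h Rxrg and Tigit run in opposite directions without and with IL-25.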

How the data were processed

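Intestinal ILC2s grown in IL-2 plus IL-7, some of them also in IL-25, were taken at 4, 48 and 72 h and sequenced with Smart-seq2, giving 6 groups of 4 libraries. The authors deposited TPM values per gene, made with cutadapt 2.10, STAR 2.7.5c and RSEM 1.3.3 on mm10, per the submitters' processing notes, which give no settings. The listed genes do not make up the whole TPM total of a library, and the rule by which genes were left out is not given in the sources used here, nor is the use of strand in counting. All 24 culture libraries were fitted together on log2(TPM + 1) with limma 3.58.1 in R 4.3.3, after a filter that kept genes reaching 1 TPM in 4 or more libraries. Contrasts were tested with a trended prior and Benjamini-Hochberg adjustment over 10548 genes, and a call is an adjusted p under 0.05. A positive log2 difference is higher at 48 h. A fold change on this scale understates that of scarce genes. In a test on simulated data for 48 h against 4 h without IL-25, 92 of 100 genes changed by 1 on the log2 scale and 44 of 100 changed by 0.5 were recovered, and 5 of 10348 unchanged genes were called. The changed genes were taken from the more abundant ones, with as many rises as falls. Noise was independent between genes, and all other genes had the same mean in every group. The real data had far more called genes and a shifted median, so these rates do not carry over to them.

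Alternatives were a pseudocount of 0.1, a filter of 5 TPM or none, median-of-ratios scaling, quantile normalization, array weights, the compared groups alone, a replicate block and leaving out each library. The members and gene lists were chosen with earlier results of these data known. Named genes are chosen key genes, the 15 largest rises and falls with a mean of at least 10 TPM and no overlap, and up to 6 members of each list with the largest difference and a mean of at least 5 TPM. Other names are marked as chosen after their values were seen. Promoters were read from RefSeq (GRCm38.p6) by gene symbol.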

Additional observations from a re-analysis of the deposited data

Results flagged for a closer look

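Single libraries stood apart from the other 3 of their group in 10 of 112 groups of 4 examined (56 genes at 48 h and at 4 h), where chance alone would mark about 1 in 20. At 48 h, replicate 1 was low for 3 mitosis genes: Ccnb1 had 61.6 TPM beside 123, 124 and 129, Cdk1 181 TPM beside 298, 313 and 314 and Ube2c 191 TPM beside 432, 455 and 468. Also at 48 h, Pdzk1ip1 had 0.46 TPM beside 0, 0 and 0 and H2ac19 9.74 TPM beside 0, 0 and 0. At 4 h, Il7r had 101 TPM beside 82.7, 83.9 and 84.4, Il5 492 TPM beside 308, 318 and 323, Irf4 127 TPM beside 91.3, 92.5 and 97.2, Klrg1 319 TPM beside 345, 348 and 349 and Cystm1 62.7 TPM beside 81.9, 83.6 and 84.8. The cause of these values was not tested.

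For 23 of these genes the change from 4 h to 48 h differed between cultures without and with IL-25 by at least 1 on the log2 scale, with the difference itself called by limma. The numbers in brackets are the log2 change without IL-25 minus that with it. The changes had opposite signs, higher without and lower with IL-25, for Rxrg (1.71), Gata3 (1.15), Fos (1.08) and Txnip (1.48), with the change of Fos with IL-25 not itself called. The gene was lower at 48 h in both, and less so without IL-25, for Il17rb (1.52), Il7r (1.37), Rora (2.87), Il9 (1.98), Jun (1.200), Il22 (3.47), Ccl1 (1.02) and Dgat2 (1.73). It was lower in both, and more so without IL-25, for Pdzk1ip1 (-2.51), Tnfrsf9 (-4.15), Trf (-1.797), Irf4 (-1.16) and Cystm1 (-1.75). It was higher at 48 h in both, and less so without IL-25, for Areg (-1.58), Pclaf (-1.098) and Lgals1 (-1.65). It was higher in both, and more so without IL-25, for Top2a (1.05), Hba-a1 (2.28) and H2ac11 (1.25).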

How the results depend on the processing

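For 48 h against 4 h without IL-25, 254 of 281 named genes kept their call and direction under all 16 settings. Many of them were named for large differences in these same data, so this share does not carry over to all genes tested. Over all genes, the counts called higher and lower moved most under median-of-ratios scaling. Over all named genes and settings, 4422 of the values kept call and direction, 53 lost the call, 19 gained it and 1 changed sign: Rpl5, a ribosomal protein gene, had a log2 difference of 0.0184 after median-of-ratios scaling. That scaling also gave 3277 genes higher and 3060 lower, and quantile normalization 2821 and 3620. Leaving out 1 library at a time gave 1936 to 2071 higher, 4293 to 4738 lower and 2274 to 2527 changed at least 2-fold. With IL-25 these ranges were 2758 to 2854, 4483 to 4696 and 3389 to 3576, and for the interaction 964 to 1179, 1630 to 1874 and 1151 to 1189. The counts for the step from 48 h to 72 h moved under more of the settings. Its higher calls were 17 with a pseudocount of 0.1, 15 after median-of-ratios scaling and 1 in the compared groups alone. Its lower calls were 48 with quantile normalization, 19 with array weights, 32 after median-of-ratios scaling and 0 alone, and its calls of at least 2-fold were 3 with a filter of 5 TPM and 1 alone. Leaving out 1 library gave 10 to 43 higher, 1 to 11 lower and 3 to 6 at least 2-fold for it, with higher calls of 18, 10 and 14 without 48 h replicates 1, 2 and 4 and of 10 and 13 without 72 h replicates 3 and 4, and lower calls of 3, 2 and 6 without 48 h replicates 1, 2 and 3 and of 4, 1 and 4 without 72 h replicates 2, 3 and 4. Among the gene lists, leaving out 1 library moved small counts of higher calls by 1 gene for the immediate early, NF-kB, NRF2, hypoxia, p53, retinoid, MHC class II, alarmin receptor and amino acid lists, and moved the lower calls of the myeloid, epithelial and stromal markers. The causes were not tested. Same-numbered libraries at 48 h and 4 h deviated together with r from 0.013 to 0.133. Libraries of different numbers were not compared in this way, so whether the numbers pair them was not tested. A replicate block gave 2081 higher and 4697 lower. Depth is unknown, so the limit for scarce genes could not be given.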
